A study of Mus musculus with 46 samples.

Results

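The 8 genes described here encode the Nodal signalling pathway: the secreted ligand Nodal, its co-receptor Tdgf1 (Cripto), the secreted inhibitors Lefty1 and Lefty2, the type II receptor Acvr2b, the signal transducers Smad2 and Smad3, and Foxh1, the forkhead factor that brings activated Smads to DNA. They were taken by symbol from 37108 genes of a gene-level table and from 35976 genes of a transcript-level table in which transcripts were summed by symbol. All 8 were present in both tables, and all 8 passed the filter on low values (at least 1 FPKM in at least 2 libraries of a fit). FPKM is a fragment count scaled to transcript length and to all mapped fragments. The genes were selected on measured values of the combinations at 2 days, since Tdgf1 was among the genes with the largest excess in fusion cells at day 5 (D5) and D12. Comparisons of the combinations on these 2 days are therefore described without a test. By difference on the log2(FPKM + 1) scale, Tdgf1 ranked 3 of 16842 genes at both D5 and D12. At D5 it stood at 4.12 between Clu at 4.32 and Iapp at 3.86, and at D12 at 3.94 between Dppa3 at 4.06 and Fabp3 at 3.76.

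Mouse embryonic fibroblasts (MEFs) carrying the Oct4-GFP (OG2) reporter were infected with pMXs retroviruses for Oct4 and either native Nanog (NanogWT) or NanogBiD. In NanogBiD the part of SS18 that binds BRG1, the ATPase of BAF remodelling complexes, is fused to the N-terminus of Nanog, and the sample labels name it NanogN70. Both combinations carry viral Oct4. RNA was sequenced on 8 days from D0, which follows the infections, to D12. Each combination and day has 2 libraries, except NanogBiD at D8, which has 1. Cells were kept in an inducing medium (iCD3) to about D7 and then in N2B27 with 2 inhibitors and LIF, so the later days and the second medium cannot be told apart. Uninfected MEFs (2 libraries) and OG2 mouse ES cells (OG2-mES, 1 library) served as references. Induced pluripotent stem cells (iPSC) gave 6 NanogBiD and 6 NanogWT libraries, each split between the labels iPSC1 and iPSC2. The iPSC and the OG2-mES were held feeder-free in the N2B27-based medium. The labels iPSC1 and iPSC2 are called lines here, though nothing says whether they, or the numbered samples within them, are separate lines. By the file headers iPSC1 was taken at later passage than iPSC2, which makes line and passage inseparable here. Nothing says that replicates came from separate cultures, so p-values measure the spread between these libraries, which may be technical.

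In the embryo, Nodal is recognised by a complex of type I and type II activin receptors that needs Tdgf1 or a related EGF-CFC protein as co-receptor. The receptors phosphorylate Smad2 and Smad3, which enter the nucleus with Smad4 and, with partners such as Foxh1, activate target genes that include Nodal, Lefty1 and Lefty2 themselves. The Lefty proteins then block the ligand and its co-receptor, which closes a feedback loop. The pathway is best known for patterning the early embryo and its left-right axis, and Nodal, Tdgf1 and the Lefty genes are commonly expressed in mouse ES cells. RNA levels report expression of these components and not phosphorylation of Smads.

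Summed levels of 8 fibroblast genes were 5700 to 6680 FPKM in MEFs and 8.35 in OG2-mES, and those of 8 pluripotency genes (without Nanog and Pou5f1, which the vectors carry) 0.365 to 1.5 and 3330. At D12 the pluripotency sum was 1140 to 2120 in NanogBiD and 166 to 224 in NanogWT cells, and the fibroblast sum 297 to 438 and 2910 to 3400. Over all time-course libraries the sum of 6 primitive endoderm genes was 3.82 to 13.9. That of 5 mesendoderm genes was at most 2.10 up to D8. In NanogBiD cells it was then 4.69 to 7.14 at D10 and 13.4 to 14.7 at D12. NanogWT cells held 1.80 to 3.51 and 3.98 to 9.48 on these days, and OG2-mES 9.57. These sums rest on different genes. Most of the NanogBiD sum at D12 was Lhx1, whereas the OG2-mES sum came nearly all from the other genes of the list. Eomes, for example, was at 0.704 to 1.54 FPKM in NanogBiD cells at D12 and 4.6 in OG2-mES. The sum of 5 trophoblast genes in NanogBiD cells was 2.71 to 3.18 at D5, 16.7 to 19.0 at D7 and 32.9 to 61.0 at D12. It was 2.62 to 5.52 at D12 in NanogWT and 49.2 in OG2-mES, within the NanogBiD range of D12. Of the 5 genes, 2 held at least 1 FPKM in every NanogBiD library of D12, and 3 did in OG2-mES. Every comparison below on D7 to D12 is between groups that differ in the fibroblast and pluripotency sums. The part of the marker sums in these comparisons was not tested. In bulk RNA, fewer cells of a type and less RNA per cell cannot be told apart. Relative depth, read from the smallest steps between low values, was 1.90 to 3.26 in NanogWT at D8 to D12 and 0.830 to 1.13 in all other libraries. Among the iPSC libraries, sample 9 of NanogBiD iPSC1 stood apart with a fibroblast sum of 1380 FPKM, against 1.85 to 432 in the other 11, and the differences among iPSC are given with and without it.

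Promoter sequences were held for 4 of the 8 genes in the RefSeq-based table (GRCm38.p6, the assembly of mm10), namely Tdgf1, Nodal, Acvr2b and Smad3. The 250 bases before the start of Tdgf1 and Nodal are printed, since Tdgf1 rose earliest with NanogBiD and Nodal is the ligand it serves. Tdgf1 (chr9:110946159-110946408) is read from the minus strand and Nodal (chr10:61417722-61417971) from the plus strand. Capitals mark matches on either strand to the FOXH1 motif TGTNNATT or to the NANOG core TAATGG.
Tdgf1: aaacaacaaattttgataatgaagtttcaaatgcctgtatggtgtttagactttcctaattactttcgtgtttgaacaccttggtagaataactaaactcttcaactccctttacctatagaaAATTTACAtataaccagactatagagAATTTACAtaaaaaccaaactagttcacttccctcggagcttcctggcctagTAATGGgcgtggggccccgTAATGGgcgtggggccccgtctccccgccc
Nodal: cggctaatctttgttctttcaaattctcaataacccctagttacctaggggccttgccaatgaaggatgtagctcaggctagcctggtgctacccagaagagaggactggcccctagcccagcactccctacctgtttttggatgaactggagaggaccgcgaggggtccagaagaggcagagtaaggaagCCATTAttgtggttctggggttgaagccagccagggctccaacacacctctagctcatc
The Tdgf1 window held 2 FOXH1 matches, starting 127 and 101 bases before the start, and 2 NANOG core matches at 49 and 30 bases. The latter pair lies in an exact tandem repeat of 21 bases whose copies are 19 bases apart. The Nodal window held 1 NANOG core match, at 59 bases. Of 32851 promoter windows of this length, 10.9% held the FOXH1 motif and 6.57% the NANOG core. No match was found in any of the 4 windows for the octamer ATGCAAAT, the SOX motif CATTGT, the Smad palindrome GTCTAGAC or the Smad motif GGCGCC, which 1.6%, 10.7%, 0.167% and 9.59% of all windows held. A match is a description of letters and not of binding. GC content was 42.0% in the Tdgf1 and 53.2% in the Nodal window, against 72.8% for Acvr2b and 69.2% for Smad3 and a median of 52.4%.

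Lefty1 (chr1:180935022-180938401) and Lefty2 (chr1:180893108-180899107) are neighbours separated by 35914 bases, and their coding sequences are alike enough to ask whether reads can be assigned. The reading frames of the GENCODE vM21 transcripts are both 1107 bases long and 91.9% identical. The longest identical run was 140 bases, and 0 of 1471 windows of 150 bases in the Lefty1 transcript recurred unchanged in that of Lefty2. For Tdgf1, the processed pseudogene Tdgf1-ps1 was 98.8% identical over 512 bases, and 5 of the 1783 windows of 150 bases in the Tdgf1 transcript recurred in it unchanged. Tdgf1-ps2 was 92.9% identical and shared 0 windows.

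Tdgf1 (chr9:110939608-110946158), the co-receptor, moved first and furthest with NanogBiD on the log2(FPKM + 1) scale, but not with NanogWT. It was listed at 0 in both MEF libraries, and at D0 and D1 every library held at most 0.142 FPKM. With NanogBiD it reached 7.42 and 4.22 FPKM at D3. The D5 libraries held 23.0 and 21.3, and the D7 libraries 49.1 and 39.4. The single D8 library held 79.2 FPKM, the D10 libraries 70.9 and 53.6, and the D12 libraries 93.3 and 99.2. NanogWT cells were lower on each of these days, with no overlap between the combinations from D3 on. Their libraries held 0.127 FPKM and 0 at D3. From D5 to D8 they ranged from 0.136 to 0.840, with 0.566 and 0.136 at D5, 0.454 and 0.840 at D7 and 0.336 and 0.742 at D8. They held 1.41 and 4.01 FPKM at D10 and 3.13 and 8.74 at D12. Low values were taken as whole multiples of 1 read, with the size of a read chosen so that the lowest values came out whole. At a relative depth of 1, a read of Tdgf1 was worth 0.0303 FPKM. All 9 values above 0 and under 30 reads were whole within 0.15, the lowest of them by that choice. The NanogWT D3 libraries thus rest on about 4 reads and 0, and those of D5 on about 20 and 4. Against 408 FPKM in OG2-mES, the mean was 23.6% in NanogBiD and 1.45% in NanogWT cells at D12.

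At D0 and D1, days that the choice of genes did not use, 0 of the 8 genes differed between the combinations (limma, calls at an adjusted p under 0.05 with a change of 1 or more on the log2 scale). The background was 0.76% of genes called at D0 and 1.33% at D1. Of the 8, 1 gene at D0 (Smad3) and 0 at D1 had an unadjusted p under 0.05, as did 2668 and 2266 of all 16842 genes. At D3, 1 of 8 was called higher with NanogBiD, against 1.25% of all genes. This gene was Tdgf1, which was chosen for its excess at D5 and D12, so the count beside that share is a description. Its difference at D3 was 2.64 ± 0.34 (SE, log2(FPKM + 1) scale, limma adjusted p = 2.55e-05). The same difference was 4.78 ± 0.34 at D7 (adjusted p = 3.81e-09) and 4.17 ± 0.34 at D10 (adjusted p = 6.84e-09). Tdgf1 rose from D0 in both combinations by D10, by 5.93 ± 0.34 with NanogBiD (adjusted p = 4.43e-11) and by 1.75 ± 0.34 with NanogWT (adjusted p = 0.000379). By D7 the rise was 5.45 ± 0.34 with NanogBiD (adjusted p = 1.56e-10), while NanogWT gave 0.66 ± 0.34 (adjusted p = 0.13).

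**Figure D1:**
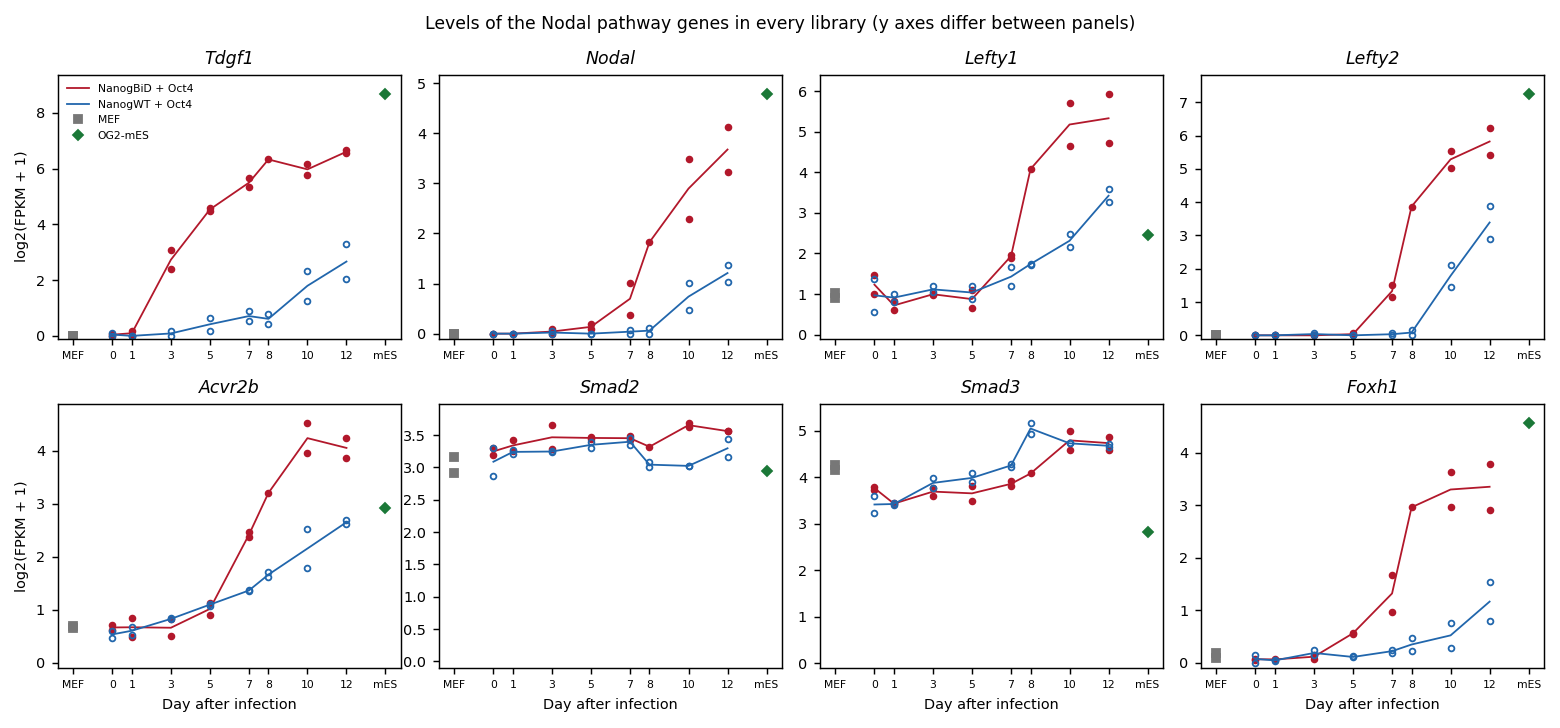
Level of each gene in every library, as log2(FPKM + 1), against day after infection, with MEF (grey squares) and OG2-mES (green diamonds) at the ends. Red filled points are NanogBiD and blue open points NanogWT libraries, and lines join group means. With NanogBiD, every Tdgf1 library is at least 1 FPKM above all MEF and D0 libraries from D3. Lefty2 and Acvr2b follow from D7 and Nodal, Lefty1 and Foxh1 from D8, and Foxh1 is slightly above D0 at D5. Of these genes, Lefty1 and Acvr2b pass OG2-mES.

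Nodal (chr10:61417972-61425338), the ligand, appeared after its co-receptor. It was listed at 0 in both MEF libraries and in all 8 libraries of D0 and D1. NanogBiD libraries held 0.0592 FPKM and 0 at D3. Those of D5 held 0.0591 and 0.140, and those of D7 0.295 and 1.03. They then held 2.54 at D8, 10.3 and 3.91 at D10, and 16.5 and 8.32 at D12. NanogWT libraries stayed at or below 0.0870 FPKM up to D8. They held 0.382 and 1.02 at D10 and 1.06 and 1.60 at D12, all below the lowest NanogBiD library of the same day. At D10 Nodal differed by 2.16 ± 0.30 (limma adjusted p = 5.47e-06), and by 1.29 without replicate 1 (adjusted p = 0.00376). At D7 the difference was 0.66 ± 0.30 (adjusted p = 0.114), and it passed the test only when 0.1 was added to FPKM in place of 1 (2.42, adjusted p = 0.00267) or after rescaling to a common total (1.21, adjusted p = 0.0207). Nodal at D12 was 46.6% of its OG2-mES level of 26.6 FPKM with NanogBiD and 4.99% with NanogWT.

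Both Lefty genes, inhibitors of Nodal and its targets, were far higher at D8 than at D7 with NanogBiD. Lefty2 was listed at 0 in MEFs and at D0 and D1. NanogBiD libraries held 1.22 and 1.84 FPKM at D7, 13.6 at D8, 45.3 and 31.9 at D10 and 74.0 and 41.8 at D12. NanogWT libraries held at most 0.123 FPKM up to D8, then 1.74 and 3.37 at D10 and 6.44 and 13.8 at D12. The groups did not overlap from D7 on. The difference was 1.30 ± 0.27 at D7 (limma adjusted p = 0.00132) and 3.50 ± 0.27 at D10 (adjusted p = 4.58e-09). The D7 call rests on replicate 2, without which the difference was 1.15 (adjusted p = 0.0652).

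Lefty1, unlike Lefty2, was present from the start. MEF libraries held 0.859 and 1.04 FPKM, and every library up to D5 lay between 0.474 and 1.76, with the combinations overlapping. NanogBiD libraries then held 2.73 and 2.91 FPKM at D7, 15.9 at D8, 51.1 and 24.2 at D10 and 60.3 and 25.5 at D12. NanogWT libraries held 1.30 and 2.15 at D7, 2.37 and 2.31 at D8, 3.43 and 4.57 at D10 and 8.58 and 11.0 at D12. From D8 with NanogBiD, and at D12 with NanogWT, all libraries lay above the 4.51 FPKM of OG2-mES. The difference between combinations was 0.51 ± 0.35 at D7 (limma adjusted p = 0.314) and 2.87 ± 0.35 at D10 (adjusted p = 1.07e-06). Lefty1 shares sequence with the lncRNA Gm39715, which was at 0 to 4.48 FPKM in this table, and the use of strand in counting is not stated, so reads in their overlap cannot be told apart.

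The balance of the pair differed between late reprogramming cells and OG2-mES. Lefty1 made up 53.0% and 43.1% of the summed Lefty FPKM in the NanogBiD libraries of D10, and 44.9% and 37.9% in those of D12. In NanogWT it made up 66.4% and 57.6% at D10 and 57.1% and 44.4% at D12. OG2-mES held 2.88%. In the transcript-level table, the 12 iPSC libraries held 2.71% to 17.9% (median 10.8%) and OG2-mES 3.05%. All late time-course libraries were thus above all iPSC libraries, a comparison of ranges across tables that were made separately, with no test.

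**Figure D2:**
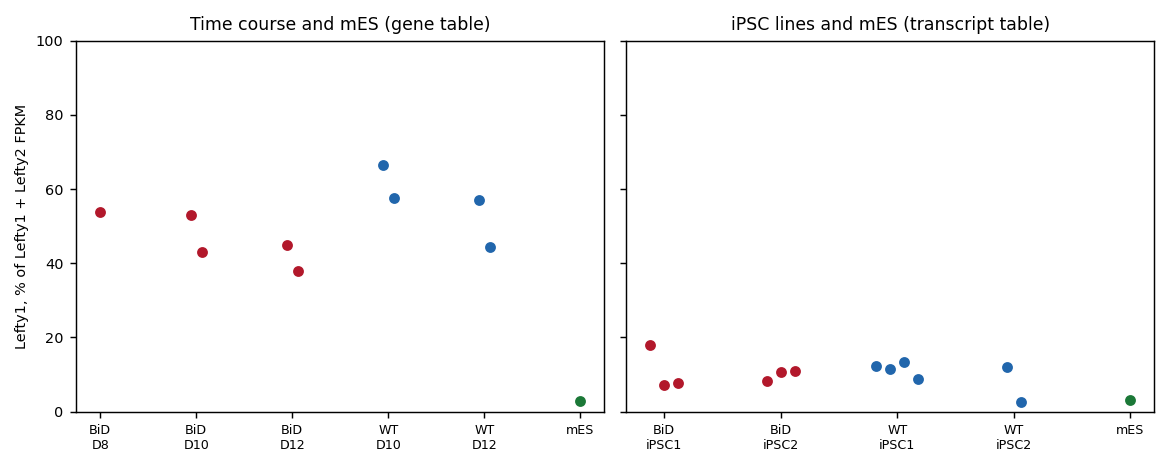
Share of Lefty1 in the summed FPKM of Lefty1 and Lefty2 (y axis, percent), 1 point per library, for the late time course (left) and the iPSC lines (right), each with OG2-mES. The late libraries lie at 37.9% to 66.4% and the iPSC libraries at 2.71% to 17.9%.

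Acvr2b (chr9:119401583-119442148), a type II receptor for Nodal and activins, was low but measured in all time-course libraries. It lay at 0.574 and 0.618 FPKM in MEFs and between 0.378 and 1.18 in both combinations up to D5. NanogBiD libraries held 4.15 and 4.51 FPKM at D7, 8.21 at D8, 14.5 and 22.0 at D10 and 13.6 and 17.9 at D12. NanogWT libraries rose more slowly, to 1.56 and 1.58 at D7, 2.27 and 2.05 at D8, 2.43 and 4.78 at D10 and 5.45 and 5.11 at D12. The single OG2-mES library held 6.52 FPKM, which all NanogBiD libraries from D8 and no NanogWT library exceeded. The combinations differed by 1.05 ± 0.22 at D7 (limma adjusted p = 0.00099) and 2.08 ± 0.22 at D10 (adjusted p = 1.39e-07), and quantile normalization brought the D7 difference to 0.97, under the limit of 1. Within NanogWT the rise from D0 to D10 was 1.62 ± 0.22 (adjusted p = 6.85e-06), and within NanogBiD 3.58 ± 0.22 (adjusted p = 9.63e-11).

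Foxh1 (chr15:76667829-76671614) was at most 0.174 FPKM in every MEF, D0, D1 and D3 library. At D5 the NanogBiD libraries held 0.461 and 0.488 FPKM and those of NanogWT 0.0704 and 0.0844. NanogBiD libraries then held 2.19 and 0.952 at D7, 6.80 at D8, 11.5 and 6.80 at D10 and 12.9 and 6.54 at D12. In NanogWT Foxh1 lay at 0.188 and 0.139 at D7 and at 0.162 and 0.389 at D8. The D10 libraries held 0.219 and 0.687 and the D12 libraries 0.723 and 1.91, below every NanogBiD library of the same day. The difference was 1.10 ± 0.28 at D7 (limma adjusted p = 0.0055) and 2.78 ± 0.28 at D10 (adjusted p = 9.56e-08). The D7 call hung on replicate 1: without it the difference was 0.78 (adjusted p = 0.195). Quantile normalization took it to 0.97. OG2-mES held 22.8 FPKM. Foxh1 overlaps the end of Kifc2, which lay between 0.205 and 5.76 FPKM, and reads in their overlap cannot be told apart either.

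Smad2 and Smad3, the transducers, did not share this course. Smad2 lay between 6.32 and 11.9 FPKM in every time-course library, with MEFs at 6.50 and 7.98 and OG2-mES at 6.73. At D10 NanogBiD libraries held 11.3 and 11.9 FPKM and NanogWT libraries 7.10 and 7.17, a difference of 0.63 ± 0.14 that stayed under the limit of 1 (limma adjusted p = 0.000983). Smad3 (chr9:63646766-63757994) was at 18.1 and 16.8 FPKM in MEFs and at 8.43 to 12.9 at D0. In NanogBiD it lay at 14.1 and 12.9 at D7, 15.9 at D8, 23.1 and 30.8 at D10 and 23.1 and 28.3 at D12. In NanogWT it stood higher earlier, with 18.6 and 17.6 at D7 and 29.4 and 34.9 at D8, then 25.6 and 25.5 at D10 and 24.0 and 25.1 at D12. The combinations overlapped at D10 and D12, and the D10 difference was 0.06 ± 0.16 (adjusted p = 0.76). From D0 to D10 Smad3 rose with NanogWT by 1.32 ± 0.16 (adjusted p = 1.64e-06) and with NanogBiD by 1.03 ± 0.16 (adjusted p = 1.32e-05). The NanogBiD value fell to 0.80 under quantile normalization and to 0.86 without replicate 2. All late libraries were above the 6.09 FPKM of OG2-mES.

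Across the 8 genes, 4 were called higher with NanogBiD at D7 (Tdgf1, Lefty2, Foxh1 and Acvr2b), where 5.79% of all genes were. At D10, 6 were called higher (also Nodal and Lefty1), where 15.4% of all genes were, and 0 lower. Both counts include Tdgf1, which was chosen for its excess at D5 and D12, the days around these. They also include Foxh1, which passed the filter only through NanogBiD libraries. Its highest NanogWT library held 1.91 FPKM and the others under 1. The median difference over the 8 was 0.85 at D7 and 2.47 at D10, beside 0.08 and 0.10 over all genes tested. At D8, with 1 NanogBiD library and no test, 6 of 8 were at least 2-fold higher on this scale, as were 13.7% of all genes. At D5 and D12, whose contrast chose the set, 1 and 6 of the 8 were higher by this size alone, as were 3.85% and 13.9% of all genes. Only Tdgf1 did so at D5. The D12 differences were 2.47 for Nodal, 2.43 for Lefty2, 2.19 for Foxh1, 1.91 for Lefty1 and 1.40 for Acvr2b, and those of Lefty2, Foxh1 and Lefty1 were 1.53, 1.37 and 1.14 without replicate 1.

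**Figure D3:**
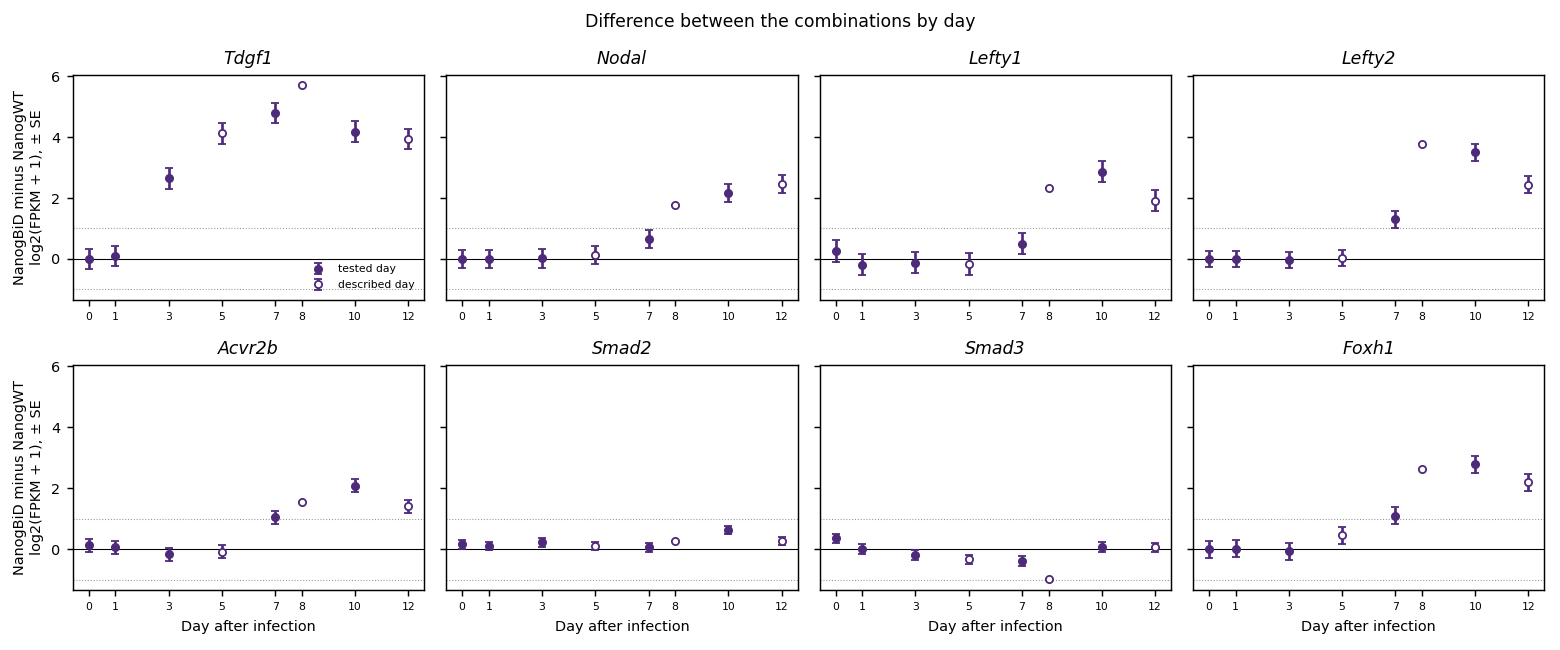
Difference between combinations (NanogBiD minus NanogWT) on the log2(FPKM + 1) scale by day for each gene, with the standard error of the fit. Filled points are tested days, open points (D5, D8, D12) are described without a test, D8 has 1 NanogBiD library and no error bar, and dotted lines mark the limit of 1. Tdgf1 leaves 0 at D3, 5 other genes between D7 and D10, and Smad2 and Smad3 stay within the dotted lines.

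Timing was compared by the first day from which every library held at least 1 FPKM more than the highest MEF or D0 library. With NanogBiD this was D3 for Tdgf1, D7 for Lefty2 and Acvr2b, D8 for Nodal, Lefty1 and Foxh1, and D10 for Smad2 and Smad3. With NanogWT it was D8 for Acvr2b and Smad3, D10 for Tdgf1, Lefty1 and Lefty2, and D12 for Nodal, and Foxh1 and Smad2 did not reach it. The order is a description, as D8 has 1 NanogBiD library.

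Within combinations, 0 of 8 genes were called in NanogWT between D0 and D7, where 17.7% of all genes were. An unadjusted p under 0.05 was held by 3 of the 8 (Acvr2b, Smad2 and Smad3), and by 7792 of all 16842 genes. Of the 3, Acvr2b (0.83 ± 0.22, limma adjusted p = 0.00441) and Smad3 (0.84 ± 0.16, adjusted p = 0.000226) were higher at D7 and missed only the limit of 1. By D10, 5 were called higher in NanogWT (Tdgf1, Lefty1, Lefty2, Acvr2b and Smad3), against 11.8% of all genes. Lefty1 was the least secure, at 1.34 ± 0.35 (limma adjusted p = 0.00465) and at 0.77 without replicate 2 (adjusted p = 0.24). In NanogBiD 4 were called higher by D7 (Tdgf1, Lefty2, Foxh1 and Acvr2b), against 12.7%, and 7 by D10 (all but Smad2), against 21.6%. In both combinations Tdgf1, Nodal, Lefty2, Foxh1 and Acvr2b were under 1 FPKM at D0, so they passed the filter through later libraries. For Foxh1 the D7 rise of 1.25 ± 0.28 (adjusted p = 0.00111) became 0.91 without replicate 1 (adjusted p = 0.0853). For Nodal and Lefty2, which were listed at 0 at D0, the D10 differences of 2.90 and 5.29 depend on the 1 added to FPKM. In these comparisons with D0 the median over all genes was itself shifted, by 0.12 and 0.19 in NanogWT and 0.24 and 0.31 in NanogBiD at D7 and D10. The share of calls that were higher depended on scaling too. For NanogBiD at D10 it was 68.7% as deposited and 49.5% after quantile normalization, for NanogWT at D10 73.9% and 53.7%, for NanogBiD at D7 67.3% and 48.1%, and for NanogWT at D7 67.8% and 54.5%, while no called gene of the 8 changed direction.

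Whether the change from D0 differed between combinations was tested as an interaction. At D7 it did for 2 of 8 genes, against 5.2% of all genes called higher. These were Tdgf1 (4.79 ± 0.48, limma adjusted p = 1.39e-06) and Lefty2 (1.30 ± 0.39, adjusted p = 0.0272), whose call was lost when either replicate was left out (adjusted p = 0.202 and 0.259). Smad3 (-0.75 ± 0.22, limma adjusted p = 0.0256, the larger rise being in NanogWT) and Acvr2b (0.92 ± 0.30, adjusted p = 0.045) missed only the limit of 1 at D7. At D10 the change differed for 6 of 8, against 14.7%. The limits given above for Tdgf1 and Foxh1 hold for these counts too. The differences in change were 4.18 for Tdgf1, 3.50 for Lefty2, 2.79 for Foxh1, 2.60 for Lefty1, 2.16 for Nodal and 1.95 for Acvr2b. Without replicate 1 those of Nodal and Lefty1 fell to 1.29 (adjusted p = 0.0624) and 1.27 (adjusted p = 0.129). Without replicate 2 that of Lefty1 was 3.94 (adjusted p = 0.000185). Smad2 gave 0.47 (adjusted p = 0.0715) and Smad3 -0.29 (adjusted p = 0.317).

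Other genes of the pathway were taken as a list of 31, of which 26 were tested in the time course. None of the 26 was called between combinations at D0, D1 or D3. At D7 1 was called higher, where 5.79% of all genes were: Gdf3, a TGF-beta family ligand that also needs Tdgf1, with 4.88 to 6.06 FPKM in NanogBiD and 0.955 to 1.25 in NanogWT libraries (difference 1.62 ± 0.24, limma adjusted p = 4.3e-05). At D10 8 were higher and 4 lower with NanogBiD, where 15.4% and 12.3% of all genes were. Among ligands and processing enzymes, Gdf3 was higher by 1.47 ± 0.24 (11.6 to 21.7 against 4.89 to 5.26 FPKM). Pcsk6, a convertase that cleaves Nodal, was higher by 1.66 ± 0.21 (6.63 to 10.2 against 1.79 to 2.05 FPKM). Inhba and Inhbb, which encode activin subunits, were lower by -1.48 ± 0.29 and -2.18 ± 0.42. Among inhibitors, the activin-binding protein Fst was lower by -3.13 ± 0.15 (2.64 to 3.67 against 34.0 to 36.1 FPKM, adjusted p = 9.3e-12). The membrane protein Tmeff1, which binds Tdgf1, was higher by 2.10 ± 0.15 (56.6 to 61.6 against 11.3 to 15.0 FPKM, adjusted p = 2.01e-09). These 6 kept their call at D10 under every alternative run. At D5, described without a test, Sox17 was at 2.07 to 2.17 FPKM in NanogBiD and 0.0657 to 0.184 in NanogWT libraries.

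Within NanogWT, 1 gene of this list was higher and 5 were lower at D7 than at D0, where 12% and 5.69% of all genes were. Gdf3 was higher by 1.07, and Fst (-2.17), Inhba (-2.01), the inhibitory Smad7 (-1.91), the co-repressor Skil (-1.24) and the pseudoreceptor Bambi (-1.23) were lower. Without replicate 2 Gdf3 and Skil came under the limit of 1, at 0.97 and -0.96, and Inhba was at -1.30. By D10, 2 were higher (Inhbb by 2.74 and Gdf3 by 2.60) and 5 lower, among them Inhba (-1.70), Fst (-1.50), Skil (-1.49) and Tmeff1 (-1.32), beside 11.8% and 4.19%. Within NanogBiD, 2 were higher at D7 (Gdf3 by 2.46 and Sox17 by 1.16) and 5 lower, among them Fst (-3.16), Inhba (-2.81), Smad7 (-1.90) and the convertase Furin (-1.04), beside 12.7% and 6.15%. Without replicate 2 Sox17 and Furin came to 0.94 and -0.82. Sox17 passed the filter only through NanogBiD libraries, as its highest NanogWT library held 0.271 FPKM. Its call and the count of 2 that includes it are therefore descriptions. By D10, 7 were higher and 3 lower, beside 21.6% and 9.84%, with Gdf3 (3.85), the co-repressor Tgif2 (1.73) and Pcsk6 (1.30, and 0.94 without replicate 1) higher and Fst (-5.51), Inhba (-3.31) and Furin (-1.30) lower.

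The change from D0 to D7 differed between combinations for 1 gene of the list, beside 5.2% of all genes called upward. Gdf3 differed by 1.40 ± 0.34 (limma adjusted p = 0.00787), and the call was lost without replicate 1 (adjusted p = 0.135) or 2 (adjusted p = 0.1). For D10 it differed for 9, 5 upward and 4 downward, beside 14.7% and 12.5% of all genes. Fst led with -4.01 ± 0.21 and Tmeff1 followed with 2.14 ± 0.22. Inhbb (-1.62), Inhba (-1.61), Tgif1 (1.29) and Gdf3 (1.25) lost their calls without replicate 1 (adjusted p = 0.237, 0.183, 0.0685 and 0.0652). Inhbb also lost it without replicate 2 (adjusted p = 0.209), and without the filter on low values (adjusted p = 0.0756). With 0.1 added in place of 1, Inhbb and Gdf3 came to -1.36 and 0.52 (adjusted p = 0.235 and 0.593), and Gdf3 at D7 to 1.11 (adjusted p = 0.33). After rescaling to a common total, the D10 values of Inhbb and Gdf3 were not called (adjusted p = 0.0878 and 0.062).

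The genes whose means over 18 conditions (16 time-course groups, MEF and OG2-mES) were most like those of Tdgf1 on the log2(FPKM + 1) scale were Slc2a3 (Pearson r = 0.993), Nr5a2 (0.981), Sall4 (0.977), Dact2 (0.976) and Pard6b (0.973). For Nodal they were Smtnl2, Lrrc34 and Dppa4 (0.995 to 0.996), for Lefty2 Rbmxl2, Zfp42 and Platr10 (0.992 to 0.997), and for Foxh1 Trim6, Zp3 and Trim71 (0.991 to 0.994). For Lefty1 they were Lzts1, Efcc1 and Zfp41 (0.973 to 0.985), and for Acvr2b Ankrd6, Celsr1 and Usp54 (0.978 to 0.982). Smad2 (Gtdc1, 0610010F05Rik and Phtf1os, 0.909 to 0.924) and Smad3 (Kmt2e, Slc22a17 and Nrbp2, 0.915 to 0.935) had looser matches. Within the 8, the closest pairs were Nodal with Lefty2 (0.982), Nodal with Foxh1 (0.973), Lefty2 with Foxh1 (0.970) and Lefty1 with Acvr2b (0.959). Tdgf1 with Nodal gave 0.862. The conditions share libraries, days and depth, so these values describe likeness of course and carry no p.

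In established iPSC, read from the transcript-level table, Tdgf1 was abundant in all 12 libraries. NanogBiD iPSC1 libraries held 240, 222 and, in sample 9, 160 FPKM, and NanogBiD iPSC2 libraries 233, 230 and 232. NanogWT iPSC1 libraries held 272, 435, 223 and 288 FPKM and NanogWT iPSC2 libraries 209 and 237, with 369 in OG2-mES and 0 listed in both MEF libraries. The combinations overlapped. The difference was -0.29 ± 0.17 (limma adjusted p = 0.999) and -0.16 without sample 9. Over all 8 genes 0 were called between combinations, as were 0 of 12456 genes tested (background 0%), with 201 genes and, of the 8, Lefty2 at an unadjusted p under 0.05. Leaving out each library in turn also gave 0.

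Lefty2 showed the widest contrast among iPSC. NanogBiD iPSC1 libraries held 64.0, 66.3 and 66.7 FPKM and NanogBiD iPSC2 libraries 123, 124 and 125. NanogWT iPSC1 libraries held 94.2 to 256 FPKM, NanogWT iPSC2 libraries 142 and 205, and OG2-mES 124. Within NanogBiD the lines thus did not overlap, whereas in NanogWT they did. The difference was -0.77 ± 0.22 between combinations (limma adjusted p = 0.999) and -0.74 without sample 9. Between lines it was 0.66 ± 0.22 (iPSC2 minus iPSC1, adjusted p = 0.0986), and 0.63 without sample 9 (adjusted p = 0.183). Between lines 0 of the 8 genes were called, against 0.883% of all genes (42.7% of them higher in iPSC2, and 52.8% after quantile normalization). Foxh1 and Lefty2 had an unadjusted p under 0.05, as did 3059 of all 12456 genes tested. Foxh1 was at 11.3 to 24.5 FPKM in iPSC1 and 21.8 to 27.3 in iPSC2, a difference of 0.60 ± 0.17 (adjusted p = 0.0576, and 0.123 without sample 9).

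Nodal and Lefty1 were above OG2-mES in all 12 iPSC libraries. Nodal lay between 26.2 and 38.2 FPKM (median 33.2) against 21.4, and Lefty1 between 5.04 and 39.5 (median 13.8) against 3.90. Acvr2b lay between 5.27 and 7.27 FPKM around the 6.10 of OG2-mES, below the 13.6 to 22.0 of NanogBiD cells at D10 and D12 in the separately made gene-level table. Smad2 lay between 6.63 and 8.33 FPKM in iPSC and at 6.94 and 8.17 in MEFs. Smad3 lay between 1.81 and 7.04 FPKM in iPSC, with 14.9 and 15.7 in MEFs and 5.20 in OG2-mES.

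Against MEFs, 6 of 8 genes were called higher in iPSC, where 21.9% of all genes were, and 1 lower, where 18.8% were. All 6 were under 1 FPKM in both MEF libraries and passed the filter through the iPSC libraries alone. Their count beside the share of all genes is therefore a description. Tdgf1, Nodal, Lefty2 and Foxh1 were listed at 0 in both MEF libraries, so they could not be called lower. The sizes of their differences (7.89, 5.07, 6.87 and 4.39) depend on the 1 added to FPKM. Lefty1 was higher by 2.87 ± 0.47 (limma adjusted p = 0.000134) and Acvr2b by 2.08 ± 0.14 (adjusted p = 5.42e-08). Smad3 was lower by -1.63 ± 0.31 (adjusted p = 0.000403), and Smad2 gave -0.01 ± 0.12 (adjusted p = 0.934). Without sample 9 these last 4 values were 2.91, 2.10, -1.67 and -0.01, and those of Tdgf1, Nodal, Lefty2 and Foxh1 7.93, 5.09, 6.87 and 4.43, with the same calls. The median over all genes was shifted by 0.22, and of all calls 53.8% were higher as deposited and 44.5% after rescaling to a common total. Of 25 other pathway genes tested, 7 were higher and 8 lower, led by Gdf3 (6.10 ± 0.11), Inhba (-4.67 ± 0.98), Pcsk6 (3.69 ± 0.33), Fst (-1.98 ± 0.33), Inhbb (-1.66 ± 0.53) and Eomes (1.53 ± 0.46). Without sample 9 these 6 were 6.12, -5.03, 3.66, -2.02, -1.87 and 1.58.

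**Figure D4:**
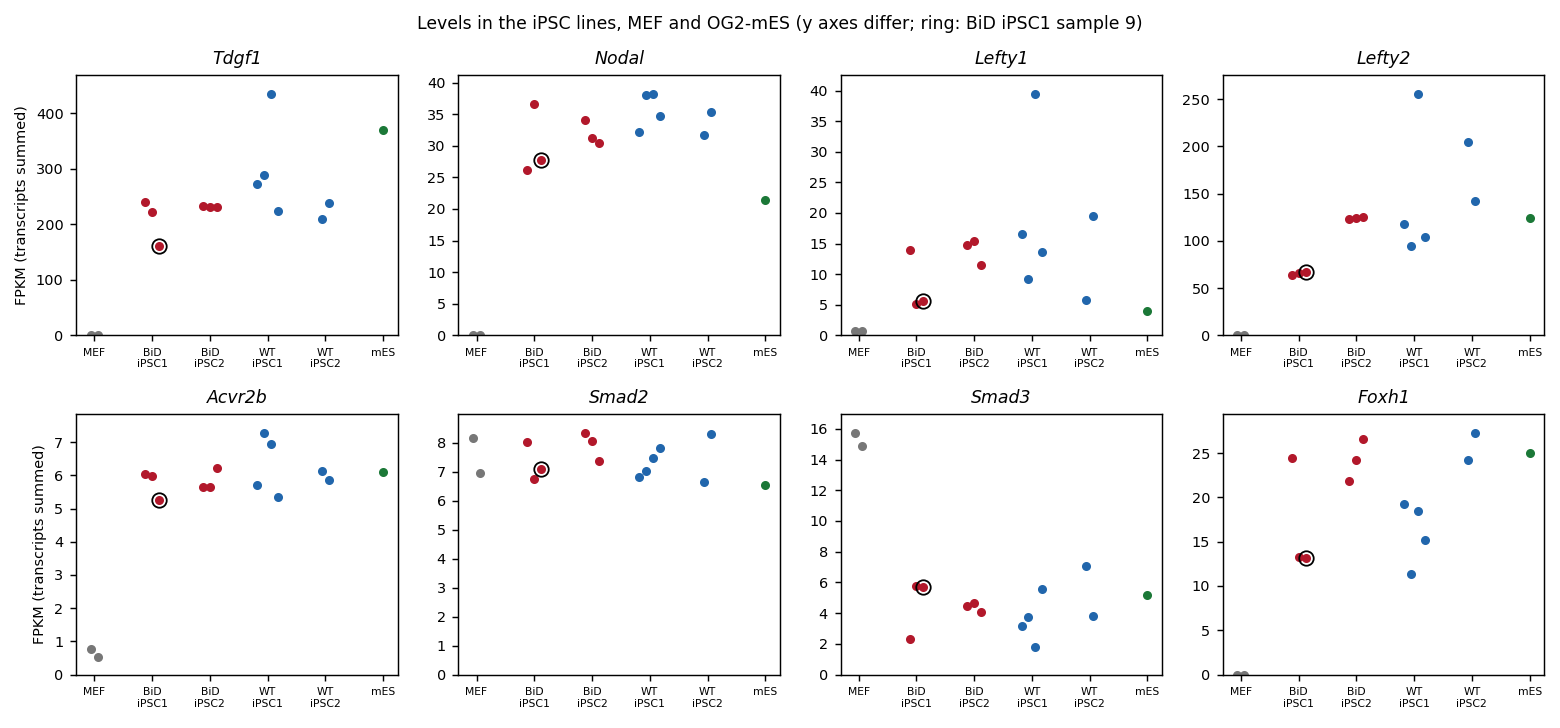
FPKM of each gene, transcripts summed, in MEF (grey), NanogBiD iPSC (red), NanogWT iPSC (blue) and OG2-mES (green) libraries, 1 point per library. The ring marks sample 9 of NanogBiD iPSC1, which carries fibroblast transcripts. Tdgf1 overlaps between combinations, Lefty2 separates the NanogBiD lines at 64.0 to 66.7 and 123 to 125, and Smad3 is below MEF in all iPSC.

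At the transcript level, 1 of the 2 RefSeq transcripts listed for Tdgf1 made up 97.8% to 99.8% of its FPKM in iPSC and 99.8% in OG2-mES. The 2 transcripts of Foxh1 were about even, the curated one at 36.6% to 58.2% in iPSC. Of 4 Acvr2b transcripts, the one that led in OG2-mES at 75.4% made up 12.9% to 98.6% in iPSC and was listed at 0 in both MEF libraries, where another held 45.2% and 100%. Acvr2b was at 0.774 and 0.524 FPKM in MEFs, so these MEF shares rest on little signal. The leading transcript of Smad3 made up at least 95.0% in iPSC. Nodal, Lefty1 and Lefty2 have 1 transcript each in the table.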

How the data were processed

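Processed values were used as the authors deposited them. Per the study's methods and the submitters' processing notes, reads were trimmed with Trim Galore 0.6.4, aligned to mm10 with HISAT2 2.2.1 and quantified with StringTie 2.2.1. The deposited values are FPKM in 2 tables, 1 per gene (34 libraries) and 1 per transcript (15 libraries, summed here by symbol). The annotation is not given in the sources used here. The transcript names are RefSeq accessions. FPKM holds no read counts, so the count-based tool of the study, GFOLD, was not used.

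All 31 time-course libraries entered 1 limma 3.58.1 fit (R 4.3.3) on log2(FPKM + 1), with a mean per combination and day and an intensity trend. The 12 iPSC libraries were fitted with combination and line, and iPSC against MEF with a mean per group. Genes at 1 FPKM or more in at least 2 libraries were tested (16842, 12456 and 13312). Calls needed a Benjamini-Hochberg adjusted p under 0.05 over all genes tested and a log2 difference of at least 1, two-sided. In fits that left out a replicate, the remaining library was assumed to vary like the other groups. The fits were tested on simulated data.

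The 8 genes, the list of 31 other pathway genes and the marker lists were chosen with earlier results of these data known. All 8 genes are named, with up to 6 called genes of the pathway list per comparison, by size, and the 5 (Tdgf1) or 3 genes most like each by Pearson r, where its highest condition mean was at least 5 FPKM. Sox17 at D5 was described as a value only. Total FPKM ranged from 370030 to 464974 per time-course, MEF and OG2-mES library. Depth is known only in relative terms. Alternatives were another pseudocount (0.1), no filter, rescaling to a common total, quantile normalization, no fold limit, fits to the compared groups alone, the replicate number as a block, each replicate left out, and the mean of samples 1 and 1-2 of NanogWT iPSC1 as 1 sample. Marker lists were fibroblast, pluripotency, primitive endoderm, mesendoderm and trophoblast genes. A target gene of the pathway list and a pair of sequences are not reported here.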

Additional observations from a re-analysis of the deposited data

Results flagged for a closer look

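In 2 of 16 sets of iPSC libraries, 1 library stood apart from the others by Dixon's ratio (its gap to the nearest library over the range of the set), which chance does in about 1 in 20 sets. Tdgf1 was lowest in sample 9 of NanogBiD iPSC1 (160 FPKM, ratio 0.777), the library with a fibroblast marker sum of 1380 FPKM and the lowest pluripotency marker sum, 1760 FPKM. Tdgf1 was highest in sample 2 of NanogWT iPSC1 (435 FPKM, ratio 0.65), the library with the highest pluripotency marker sum, 4860 FPKM. The part of these sums in the Tdgf1 values was not tested.

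The change from D0 differed between the combinations (limma interaction, called as in the report) for 2 of the 8 genes at D7 and 6 at D10, beside 5.2% and 14.7% of all genes called upward. The limits given in the report for Tdgf1 and Foxh1 hold for these counts too. The differences were 4.79 for Tdgf1 and 1.3 for Lefty2 at D7. At D10 they were 4.18 for Tdgf1, 3.5 for Lefty2, 2.79 for Foxh1, 2.6 for Lefty1, 2.16 for Nodal and 1.95 for Acvr2b. The call of Lefty2 at D7 was lost without either replicate, and those of Nodal and Lefty1 at D10 without replicate 1. At D10, both NanogBiD libraries were above both NanogWT libraries for each of these 6 genes, and also for Smad2, which was not called. The share of all genes separated in this way was not counted.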

How the results depend on the processing

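For the 8 genes, 695 values were recomputed under alternatives. Of these 654 kept their side of the threshold, or moved by no more than the spread between replicates where no test was made, 16 lost a call, 7 gained one, 18 untested values moved further, and 0 called values changed direction.

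The rest are counts of genes called over the whole table. Adding 0.1 in place of 1 gave 196 between combinations at D0 (128 as reported), 1011 at D3 (623), 1689 at D5 (1091), 2716 at D7 (1758) and, untested, 6125 at D8 (4000), 4284 for NanogWT D10 against D0 (2700), 4846 for NanogBiD D7 against D0 (3171) and 235 between iPSC lines (110). No filter gave 68 between iPSC lines. Rescaling to a common total gave 971 at D3, 4254 for NanogWT D10 against D0 and 190 between iPSC lines. Without the fold limit the counts between combinations were 321 at D0, 551 at D1, 1709 at D3, 2755 at D5, 4779 at D7, 9358 at D10 and 8546 at D12. Without it, those against D0 were 6521 and 6613 in NanogWT and 7381 and 9942 in NanogBiD at D7 and D10, those of the interaction 2684 and 6949, and those in iPSC 580 between lines and 9508 against MEF. Limma fits to the compared groups alone gave 0 at D0 (892 genes at an unadjusted p under 0.05) and 274 at D3. Leaving out a replicate gave 47 to 163 at D0, 81 to 136 at D1, 783 to 1233 for the D7 interaction and 65 to 235 between iPSC lines.

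Replicate numbers were not taken to pair the samples, since no label gives a shared origin and the correlations of same-numbered deviations were mixed (0.227, 0.135, -0.0647, -0.0429, 0.395, 0.122 and 0.0202 at D0, D1, D3, D5, D7, D10 and D12). The replicate block gave 150 calls at D0, 1765 at D7 and 4683 at D10, and it changed no call of the 8 genes. Depth limits low values most, as a NanogWT level near 0.1 FPKM rests on a few reads.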
